A study of Mus musculus with 8 samples.

Results

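The matrix metalloproteinases (MMPs), the ADAMTS proteases, the ADAMTS-like proteins and the tissue inhibitors of metalloproteinases (TIMPs) were compared between mouse malignant peripheral nerve sheath tumors (MPNST) with and without Polycomb repressive complex 2 (PRC2). The genes were chosen by symbol alone, as every Mmp, Adamts, Adamtsl and Timp gene followed by a number, which gave 51 of the 20943 genes in the deposited table: 23 MMPs, 19 ADAMTS, 5 ADAMTS-like and 4 TIMP genes. All 51 varied over the tumors and entered the test, and 28 of them were not below the median gene in mean value.

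MPNST is a sarcoma of the Schwann cell lineage. RNA from 8 tumors was sequenced as poly-A libraries. All mice carried Plp-CreERT, a tamoxifen-activated recombinase, with floxed Nf1(f/f) and Cdkn2a(f/f) alleles. The 5 PRC2 wildtype tumors came from mice with no further floxed gene and the 3 PRC2 loss tumors from mice that were also Eed(f/f), so loss of the Ras regulator Nf1 and of the cell cycle inhibitor locus Cdkn2a is shared by both groups and loss of Eed, a core PRC2 subunit, is the difference. Tamoxifen, 0.4 mg, was given from day 0 to day 3 of life, and ages at collection are not analysed here. Plp-CreERT acts in Schwann lineage cells, so stromal, vascular and blood cells of the same tumor keep their floxed alleles. Each tumor is named below by its group and the replicate number in its title. The sample codes give wildtype tumors 1 and 2 the animal code PNC8, wildtype tumors 3 and 4 the code PNC9 and PRC2 loss tumors 2 and 3 the code PNCE7, so the 8 tumors carry 5 animal numbers, 3 of them wildtype. Whether tumors with 1 number come from 1 mouse is not stated; if they do, they are not independent and the p-values come out too small. The PRC2 loss samples were labelled with a nerve (right paraspinal for tumor 1, left and right sciatic for tumors 2 and 3) and the wildtype samples were not, so nerve content and genotype cannot be told apart.

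MMPs are zinc endopeptidases, secreted or anchored to the cell surface as inactive proenzymes, that cut collagens, proteoglycans and many signalling proteins. ADAMTS proteases are secreted relatives that cut mainly proteoglycans and procollagens, and ADAMTS-like proteins share their matrix-binding modules but lack the protease domain. TIMPs bind and block the active enzymes. In injured nerve, Schwann cells and invading macrophages are known sources of MMPs that open the basement membrane and the blood-nerve barrier.

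The values are quantile-normalized log2 gene counts, and sequencing depth is unknown. A difference is the PRC2 loss mean minus the wildtype mean on that scale, and a fold change is 2 raised to it. For genes near 0 the fold change is uncertain, because the offset used before the log2 is not given. Genes are not compared with each other in level because the values are not per transcript length. Eed itself stood at 10.32, 10.33, 10.17, 10.19 and 10.23 in wildtype tumors 1 to 5 and at 8.76, 8.93 and 8.96 in the 3 PRC2 loss tumors, a difference of -1.36 (limma adjusted p = 0.00021; two-sided exact permutation p = 0.0179, the smallest that 56 splits of the tumors can give). Of 8 Schwann lineage markers 6 were higher in PRC2 loss and none lower, and their summed level was between 10.25 and 14.52 in wildtype and between 16.66 and 17.34 in PRC2 loss. Sox10, the defining transcription factor of the lineage, was at 12.09 and 12.40 in the PNC8 tumors and at 8.37, 7.07 and 7.18 in the other wildtype tumors, against 12.08, 12.57 and 12.11 in PRC2 loss, and did not pass (limma adjusted p = 0.132). Those PNC8 tumors also stood apart in skeletal muscle genes, whose summed level was 16.17 and 15.74 there and at most 8.875 in the other wildtype tumors, against 6.92, 9.548 and 12.53 in PRC2 loss tumors 1 to 3. Of 10 macrophage markers 7 were lower and none higher in PRC2 loss (summed level 15.66 to 16.79 in wildtype, 14.88 to 15.28 in PRC2 loss). Of 8 T and NK cell markers 7 were lower, of 10 neutrophil markers 8 were higher and of 8 endothelial markers 7 were higher. Among 8 fibroblast markers, Dcn and Lum were higher and none was lower (summed level 19.01 to 19.94 in wildtype, 19.34 to 20.1 in PRC2 loss). Tendon markers were mixed: of 6, Tnmd and Fmod were higher and Scx was lower. Except where stated, the part of these cell types in the results was not tested, and in bulk tissue fewer cells of a type cannot be told apart from less RNA per cell.

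Of the 51 genes, 25 (49.0%) differed between the groups in limma at an adjusted p below 0.05, against 35.7% of all 20807 genes tested. Lower values in PRC2 loss were found for 16 genes (31.4%, against 19.6% of all genes) and higher values for 9 (17.6%, against 16%). The groups did not overlap for 24 of the 51 genes, against 38.3% of all genes. Among 23 MMPs 11 fell and 2 rose, with a median difference of -1.59, while among 19 ADAMTS genes 4 fell and 4 rose (median -0.08) and among 5 ADAMTS-like genes 3 rose and none fell (median 2.33). Of the 4 TIMPs 1 fell. The median over all genes tested was -0.124. Whether the families differ from each other was not tested. Centring the tumors on 15 housekeeping genes moved the median of all genes to 0.442 and gave 16 of the 51 genes (31.4%) higher and 11 (21.6%) lower, against 35.8% and 8.03% of all genes; 9 of those 15 genes were themselves lower in PRC2 loss before centring. None of the 25 genes changed direction in any of 22 alternatives. Only Adamts1 and Mmp14 of these genes had overlapping groups. For the rest, dropping or averaging tumors, a pseudocount or another variance prior could not change the direction. Mmp3, Mmp13, Timp1, Adamts20, Adamtsl3 and Adamtsl5 kept their call in every alternative that held them. Without the 2 PNC8 tumors, which stood apart, 11 of the 51 genes (21.6%) were higher and 13 (25.5%) lower, against 16.1% and 21.0% of all genes. By Xist and Y-linked genes, wildtype tumor 5 and PRC2 loss tumor 1 were male. Without these 2 male tumors 10 of the 25 calls were kept. Among those lost were Mmp16, Mmp23, Mmp27 and Adamts9, which each held in every fit that left out 1 tumor. The fit without both males keeps only PRC2 loss tumors 2 and 3, which share the code PNCE7 and the sciatic label. Within PRC2 loss, sex therefore cannot be told apart from animal code or nerve.

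**Figure D1:**
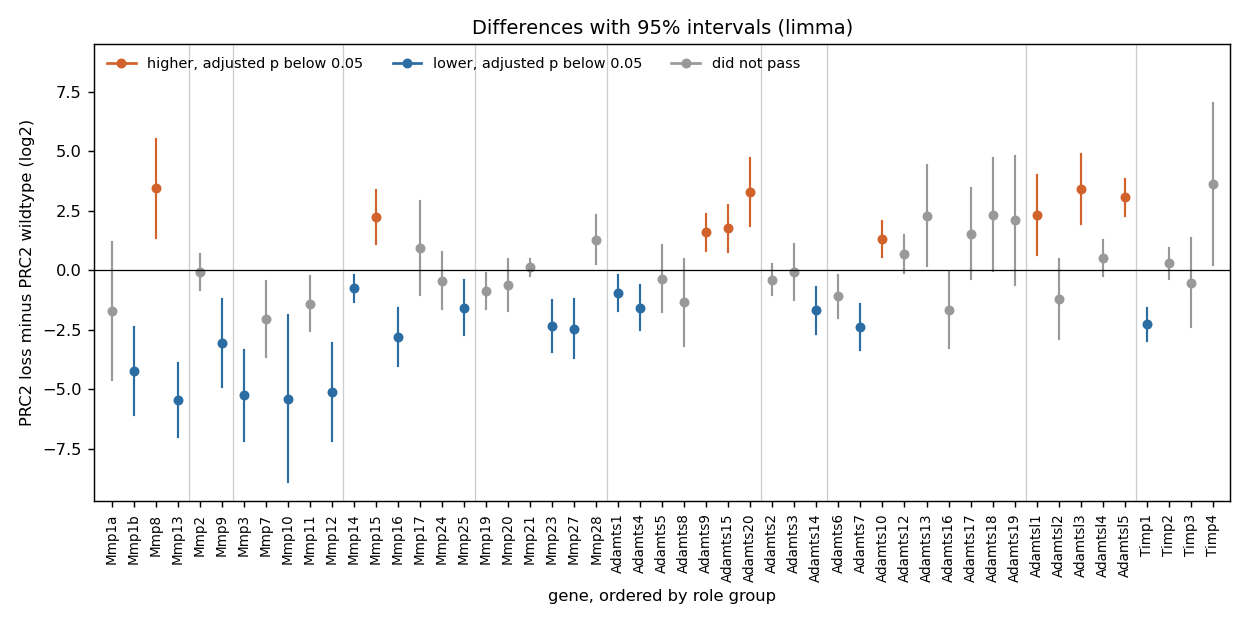
Difference between the groups for each of the 51 genes (vertical axis, PRC2 loss minus PRC2 wildtype, log2) with its 95% interval from limma, in the order of the role groups used in the text. The differences of Mmp13, Mmp10, Mmp3 and Mmp12 lay between -5.45 and -5.11, and the ADAMTS-like genes that passed lay above 2.

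On mouse chromosome 9, 10 MMP genes lie side by side between 7272514 and 7699585 (mm10), a stretch of 427 kb that holds collagenases, stromelysins, matrilysin and macrophage elastase. From low to high coordinate they are Mmp13, Mmp12, Mmp1b, Mmp3, Mmp1a, Mmp10, Mmp8, Mmp27, Mmp20 and Mmp7. Several promoters of this cluster are known to carry a site for AP-1, the Fos and Jun transcription factor, just upstream of the start. The 110 bases before the start of the 6 genes that fell and of Mmp8, which rose, are given here because the cluster holds genes that moved in opposite directions. They are from RefSeq on GRCm38.p6, the assembly of mm10, each 5' to 3' on the strand of its gene, with the AP-1 motif in capitals (TGAGTCA, or TGACTCA when read on the other strand).
Mmp13 (chr9:7272404-7272513, plus strand): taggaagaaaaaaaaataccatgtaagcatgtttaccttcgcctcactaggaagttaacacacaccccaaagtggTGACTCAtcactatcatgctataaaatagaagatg
Mmp12 (chr9:7347264-7347373, plus strand): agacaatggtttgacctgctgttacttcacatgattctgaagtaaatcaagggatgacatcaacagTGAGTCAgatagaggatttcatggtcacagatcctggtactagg
Mmp1b (chr9:7388027-7388136, minus strand): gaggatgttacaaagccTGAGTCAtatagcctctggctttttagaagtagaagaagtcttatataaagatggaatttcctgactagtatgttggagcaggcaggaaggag
Mmp3 (chr9:7445712-7445821, plus strand): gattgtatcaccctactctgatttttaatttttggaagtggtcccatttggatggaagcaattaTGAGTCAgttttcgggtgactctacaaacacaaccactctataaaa
Mmp10 (chr9:7502232-7502341, plus strand): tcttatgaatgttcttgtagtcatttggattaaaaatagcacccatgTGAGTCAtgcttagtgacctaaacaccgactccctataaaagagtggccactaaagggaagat
Mmp27 (chr9:7571286-7571395, plus strand): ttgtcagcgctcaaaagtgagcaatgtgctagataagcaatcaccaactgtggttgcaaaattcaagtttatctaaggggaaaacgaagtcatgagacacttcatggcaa
Mmp8 (chr9:7558319-7558428, plus strand): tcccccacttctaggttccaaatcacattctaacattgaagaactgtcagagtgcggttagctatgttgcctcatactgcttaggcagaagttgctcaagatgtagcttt
For Mmp12 the later of the 2 RefSeq starts is shown, and the 110 bases before the earlier start held no match. The RefSeq start of Mmp8 lies before the GENCODE start of the gene (7558456). The sequence following that RefSeq start was not found in a GENCODE transcript of Mmp8, so the position of its promoter is uncertain. The motif was searched in windows of 250 bases before to 50 bases after each start. Of the 51 genes 36 had a window, and 7 of these held the motif, all in the chromosome 9 cluster: Mmp13, Mmp12, Mmp1b, Mmp3, Mmp1a, Mmp10 and Mmp7. Genes without a window were not searched, among them the MMPs Mmp2, Mmp9, Mmp16, Mmp17 and Mmp19, all outside the cluster. Whether the motif is confined to the cluster is therefore unknown. Among all 27025 genes with a window of that length 5.95% held the motif, and among all 32851 windows 5.2%. Of the 2 RefSeq starts of Mmp7 only the earlier had a match. Mmp8, Mmp27 and Mmp20, which lie next to each other, had no match in their windows: Mmp8 rose, Mmp27 fell and Mmp20 did not pass the test. Of the 7 genes with the motif, 5 fell (Mmp13, Mmp12, Mmp1b, Mmp3 and Mmp10), and Mmp1a and Mmp7 did not pass the test. Allowing any middle base (TGANTCA, held by 8.97% of genes and 7.81% of windows) added Mmp20. A match in a window is a description of the sequence and does not show binding.

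The collagenase Mmp13, the main interstitial collagenase of rodents, fell in PRC2 loss. It stood at 8.62, 7.69, 9.68, 7.84 and 10.35 in wildtype tumors 1 to 5 and at 2.56, 4.02 and 3.57 in the 3 PRC2 loss tumors. The lowest wildtype tumor was more than 3 log2 units above the highest PRC2 loss tumor, and the difference of -5.45 (SE 0.68, 43.8-fold lower) passed the test with limma adjusted p = 0.000913. Mmp13 is also made by osteoblasts and chondrocytes; of 6 osteoblast markers 1, Sp7, was higher and 1, Dmp1, lower (summed level 13.87 to 16.08 in wildtype, 13.24 to 14.63 in PRC2 loss), and of 7 chondrocyte markers 3 were higher (9.91 to 11.78 and 10.64 to 11.99).

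Mmp1b, a rodent relative of interstitial collagenase, was detected in every wildtype tumor, at 3.88, 3.79, 5.19, 2.45 and 6.36. In PRC2 loss it was listed at 0 in tumors 1 and 2 and at 0.33 in tumor 3. The difference was -4.22 (SE 0.81, limma adjusted p = 0.0052), and a pseudocount of 16 on the linear scale ended the call (limma adjusted p = 0.0717). Its neighbour and close copy Mmp1a was at 0, 0, 3.93, 1.23 and 5.41 in wildtype, against 1.17, 0 and 0 in PRC2 loss, and did not pass (limma adjusted p = 0.328). Reads can be shared between such copies, and the 3' ends of Mmp1b and Mmp12 overlap on opposite strands by 157 bases, so the values of both Mmp1 genes are uncertain.

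Mmp8, the collagenase stored in neutrophil granules, moved the other way. Its wildtype values were 5.51, 2.32, 6.31, 5.88 and 5.01, and its PRC2 loss values 7.48, 8.49 and 9.38, all above the highest wildtype tumor. The rise was 3.44 (SE 0.91, 10.9-fold, limma adjusted p = 0.0194). Leaving out PRC2 loss tumor 2 or 3 ended this call (limma adjusted p = 0.0736 and 0.0925), and so did averaging tumors by animal number (0.0536). Granule genes of neutrophils rose too: Camp, an antimicrobial peptide gene, was at 1.64 ± 1.91 (SD, n = 5) in wildtype against 8.02 ± 0.79 (SD, n = 3), Ltf, encoding lactoferrin, at 4.51 ± 1.76 and 9.33 ± 0.98, and Mpo, myeloperoxidase, at 1.91 ± 1.39 and 5.55 ± 0.45. The chemokine receptor Cxcr2 and the growth factor receptor Csf3r of the same list did not pass (limma adjusted p = 0.658 and 0.153). The summed level of the 10 neutrophil markers was between 9.91 and 11.19 in wildtype and 11.45, 12.96 and 13.79 in PRC2 loss tumors 1 to 3, and no neutrophil marker was at 0 in all tumors of a group. Among the PRC2 loss tumors, tumor 3 held the highest and tumor 1 the lowest value of both Mmp8 and the marker sum. Among the wildtype tumors both were highest in tumor 3, but Mmp8 was lowest in tumor 2 (2.32) and the marker sum in tumor 5 (9.91). The part of neutrophils in the Mmp8 result was not tested.

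**Figure D2:**
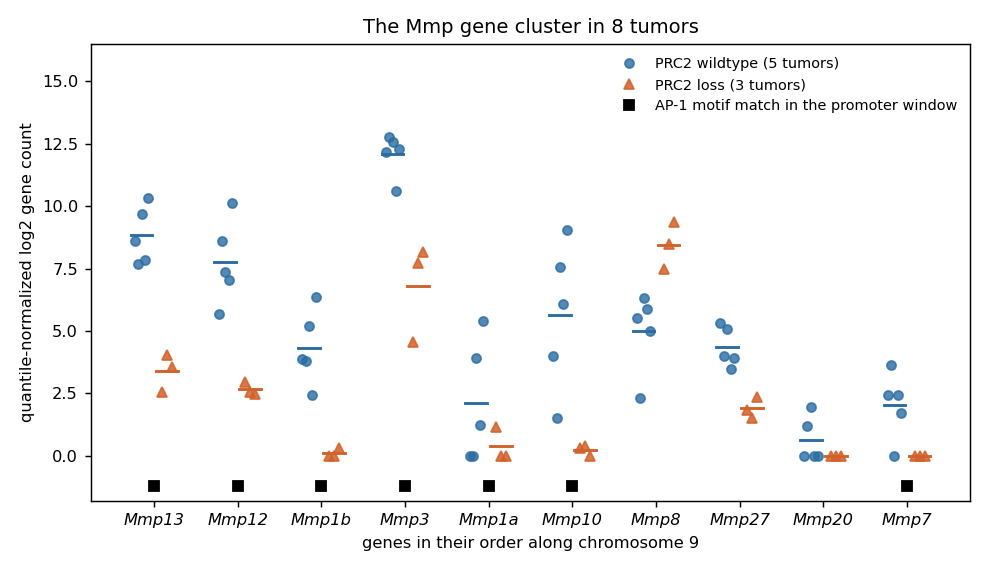
Quantile-normalized log2 gene counts (vertical axis) of the 10 MMP genes of the chromosome 9 cluster in their genomic order, with 1 symbol per tumor, a line at each group mean and a square under each gene whose promoter window held the AP-1 motif. Mmp8 was the gene of the cluster with all PRC2 loss tumors above all wildtype tumors, and 6 neighbours had all PRC2 loss tumors below.

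The stromelysins, which cut proteoglycans and noncollagenous matrix and activate other proenzymes, were represented among the falls by Mmp3 and Mmp10. Mmp3, stromelysin-1, stood at 12.18, 12.75, 12.55, 10.60 and 12.30 in wildtype, against 4.54, 7.72 and 8.17 in PRC2 loss. PRC2 loss tumor 1 was the lowest by more than 3 log2 units, and the groups were separated by more than 2 units. The difference was -5.27 (SE 0.83, 38.5-fold lower, limma adjusted p = 0.00222). Mmp10, stromelysin-2, varied widely in wildtype (3.99, 1.54, 7.58, 6.08 and 9.04) and was at or near the floor in PRC2 loss (0.33, 0.40 and 0). Its difference of -5.40 (SE 1.53) passed with limma adjusted p = 0.0257, but not without wildtype tumor 3 (0.0612) or 4 (0.0583), nor without PRC2 loss tumor 1, 2 or 3 (0.0848, 0.0858 and 0.095). The Mmp10 call was also lost with animal numbers averaged (limma adjusted p = 0.079). With a pseudocount of 16 on the linear scale the difference was -2.38 and did not pass (limma adjusted p = 0.114). Mmp11, stromelysin-3, which lies on chromosome 10 outside the cluster, averaged 10.78 ± 0.96 (SD, n = 5) and 9.38 ± 0.32 (SD, n = 3) and did not pass with all tumors (limma adjusted p = 0.0588). It passed without wildtype tumor 1 (difference -1.75, limma adjusted p = 0.0129); wildtype tumors 1 and 2, at 9.40 and 10.21, were its lowest wildtype values.

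Mmp12, macrophage elastase, was at 5.70, 8.61, 7.38, 7.05 and 10.13 in wildtype, against 2.96, 2.54 and 2.50 in PRC2 loss. No tumor of either group came near the other, and the difference was -5.11 (SE 0.90, 34.5-fold lower, limma adjusted p = 0.00367). Macrophage markers fell less far: the differences were -2.64 for Ms4a7, -1.91 for Adgre1 and -1.73 for Itgam, and Csf1r, Mrc1 and Cd14 did not pass. No macrophage marker was at 0 in any group, and the part of macrophage content in the Mmp12 result was not tested. Mmp27, a little studied member next to Mmp8, stood at 5.32, 4.00, 5.08, 3.46 and 3.94 in wildtype, against 1.85, 1.5 and 2.36 in PRC2 loss, a difference of -2.46 (SE 0.54, limma adjusted p = 0.00913). Mmp7, matrilysin, was listed at 0 in all 3 PRC2 loss tumors and at 2.44, 3.62, 0, 2.45 and 1.70 in wildtype; it did not pass (limma adjusted p = 0.0514) but did without wildtype tumor 3, which was at 0 (0.0076). Mmp20, the enamel protease, was at 0 in all PRC2 loss tumors and in 3 of 5 wildtype tumors, and Mmp21, a gene of left-right patterning, was at 0 in all 5 wildtype tumors and at 0.33 in 1 PRC2 loss tumor.

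The gelatinases, which cut denatured collagen and basement membrane collagen, did not move together. Mmp2, gelatinase A, stood at 14.82, 14.82, 15.64, 14.53 and 14.28 in wildtype, against 14.85, 15.12 and 14.24 in PRC2 loss, a difference of -0.08 with a 95% interval from -0.83 to 0.67. Mmp9, gelatinase B (chromosome 2, 164940780 to 164955850), was at 11.42, 11.87, 13.05, 12.92 and 10.32 in wildtype, against 7.12, 9.25 and 10.20 in PRC2 loss. The highest PRC2 loss tumor lay just under the lowest wildtype tumor, and the difference of -3.06 (SE 0.81, 8.34-fold lower) had limma adjusted p = 0.0192. That call was lost without PRC2 loss tumor 1 (limma adjusted p = 0.0803) or tumor 2 (0.0605), without the PNC8 tumors (0.0639) and with animal numbers averaged (0.0876). Mmp9 is made by neutrophils, macrophages and osteoclasts, whose marker lists moved up, down and, for osteoclasts, in 1 of 6 members (Ocstamp, lower), and the part of these cells in the Mmp9 result was not tested.

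**Figure D3:**
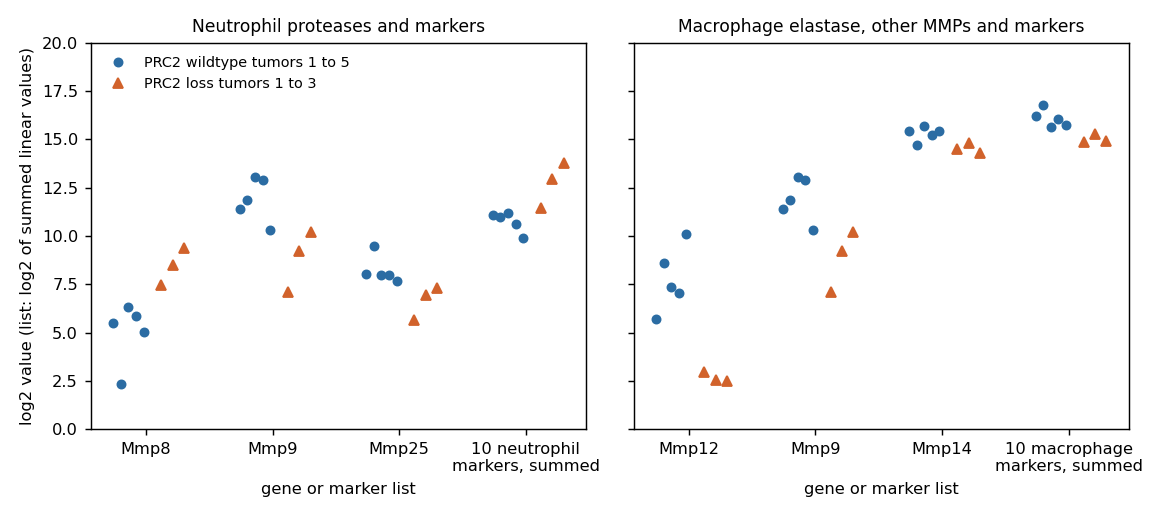
Log2 values of MMP genes known from neutrophils (left) and from macrophages or many cell types (right), beside the log2 of the summed linear values of 10 neutrophil and 10 macrophage markers, with 1 symbol per tumor in the order of the replicate numbers. The PRC2 loss values of Mmp8 and of the neutrophil sum all exceeded the highest wildtype value, Mmp9 and Mmp25 were lower, and the fall of Mmp12 exceeded that of the macrophage sum.

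The membrane-type MMPs, which act at the cell surface, were mixed: 3 of 6 fell and 1 rose. Mmp14, which activates the Mmp2 proenzyme, was at 15.42, 14.70, 15.70, 15.22 and 15.42 in wildtype, against 14.52, 14.80 and 14.27 in PRC2 loss. The groups overlapped and the difference was small, -0.76 (limma adjusted p = 0.0443). It was lost with housekeeping centring (limma adjusted p = 0.581), with animal numbers averaged (0.0687), without wildtype tumor 1, 3, 4 or 5 (0.0868, 0.0815, 0.0721 and 0.0857) and without PRC2 loss tumor 1, 2 or 3 (0.112, 0.064 and 0.151). Mmp16 (chromosome 4, 17852893 to 18119145) was at 9.26, 8.10, 10.27, 9.56 and 9.58 in wildtype, against 5.51, 7.19 and 6.87 in PRC2 loss. All PRC2 loss tumors lay below all wildtype tumors, with a difference of -2.83 (SE 0.53, 7.12-fold lower, limma adjusted p = 0.00479).

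Mmp15 (chromosome 8, 95352268 to 95375080), a transmembrane relative of Mmp14, rose instead. It was at 9.74, 10.26, 8.58, 8.27 and 8.44 in wildtype, against 11.33, 11.77 and 10.75 in PRC2 loss, a difference of 2.22 (SE 0.49, 4.67-fold, limma adjusted p = 0.00948). The PNC8 tumors were the highest wildtype values, and the call was lost without PRC2 loss tumor 2 (limma adjusted p = 0.0541). Mmp25, a lipid-anchored enzyme known from neutrophils, was at 8.03, 9.47, 7.98, 7.99 and 7.69 in wildtype, against 5.67, 6.97 and 7.30 in PRC2 loss. Its direction was opposite to that of Mmp8 and of the 8 neutrophil markers that rose, and its difference of -1.59 (limma adjusted p = 0.0396) was lost with housekeeping centring (0.129), without the PNC8 tumors (0.0902), without wildtype tumor 1, 3 or 4 (0.0685, 0.0681 and 0.0664) and without PRC2 loss tumor 1, 2 or 3 (0.147, 0.0832 and 0.0532). The Mmp25 call was also lost with animal numbers averaged (limma adjusted p = 0.0945).

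Mmp17, a lipid-anchored enzyme, separated the wildtype tumors more than the groups: it was at 10.10 and 10.66 in the PNC8 tumors, at 8.2, 7.82 and 6.91 in the other wildtype tumors and at 10.18, 10.12 and 8.66 in PRC2 loss. With all 8 tumors it did not pass (limma adjusted p = 0.448), and without the PNC8 tumors it was higher in PRC2 loss by 2.01 (0.0353). Mmp24, known from neurons, was near the floor, between 1.18 and 2.80 in wildtype and between 0.65 and 2.45 in PRC2 loss, and did not pass (limma adjusted p = 0.554).

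Among the other MMPs, Mmp23 (chromosome 4, 155650655 to 155653384), an unusual member with an amino-terminal membrane anchor, stood at 10.38, 10.28, 8.86, 8.79 and 8.89 in wildtype, against 6.39, 7.49 and 7.37 in PRC2 loss. The groups did not overlap although the PNC8 tumors again lay above the other wildtype tumors, and the difference was -2.35 (SE 0.49, 5.10-fold lower, limma adjusted p = 0.00706). Mmp19 did not pass (11.15 ± 0.50, SD, n = 5, against 10.27 ± 0.55, SD, n = 3; limma adjusted p = 0.0663), although its groups did not overlap. Mmp28, epilysin, known from skin and from nerve, was at 8.67 ± 0.84 (SD, n = 5) and 9.95 ± 0.15 (SD, n = 3) with limma adjusted p = 0.0523. Mmp28 passed as higher without wildtype tumor 5, its highest wildtype tumor (difference 1.59, limma adjusted p = 0.0112), and with housekeeping centring (1.85, 0.0109).

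**Figure D4:**
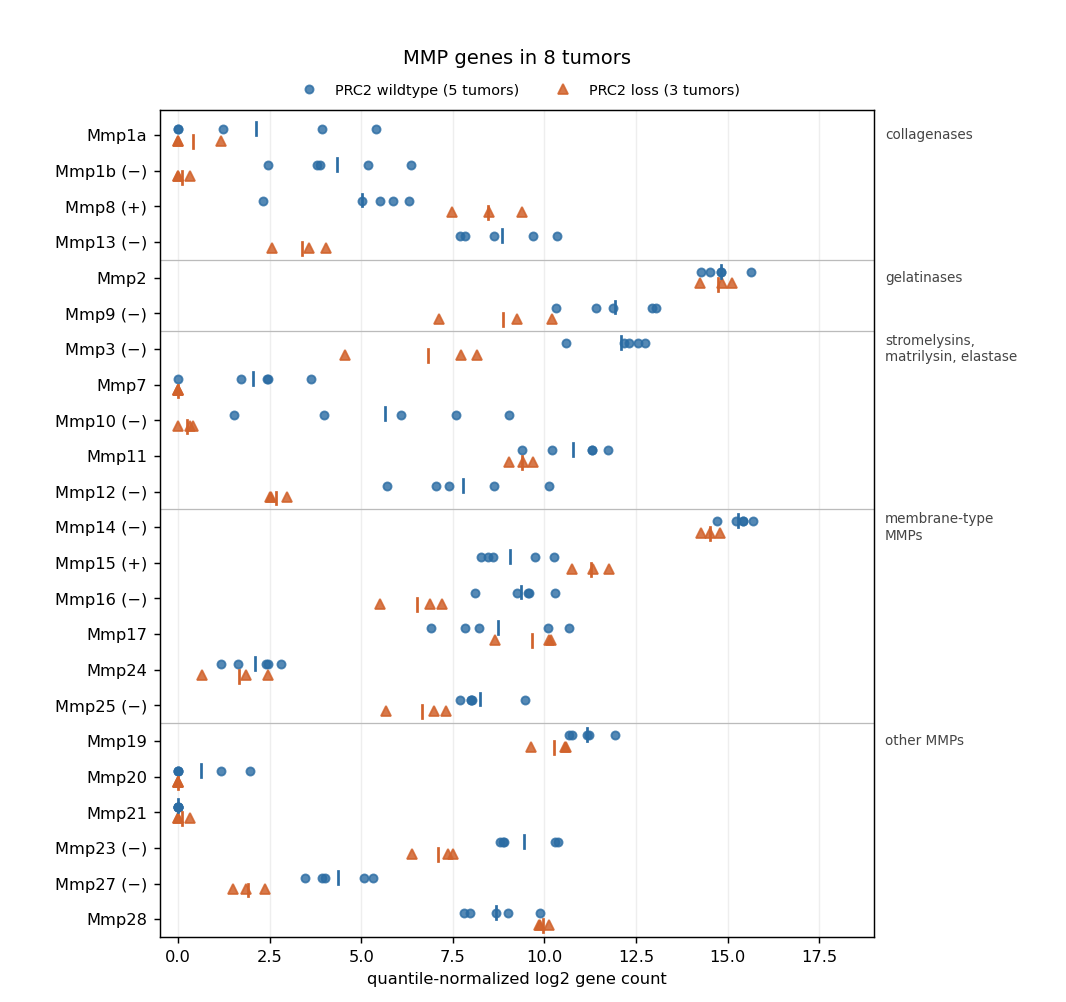
Quantile-normalized log2 gene counts (horizontal axis) of all 23 MMP genes in 5 PRC2 wildtype tumors (circles) and 3 PRC2 loss tumors (triangles), grouped by role, with a short line at each group mean. A plus or minus sign marks the 2 genes higher and the 11 genes lower in PRC2 loss at an adjusted p below 0.05.

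The ADAMTS proteases that cut aggrecan, versican and related proteoglycans split by gene: of 7, 3 rose and 2 fell. Adamts20 (chromosome 15, 94270163 to 94465418), a versican-cutting enzyme of embryonic skin and pigment cell development, was at 7.59, 7.77, 8.04, 5.72 and 5.62 in wildtype, against 10.57, 10.30 and 9.85 in PRC2 loss. Every PRC2 loss tumor exceeded every wildtype tumor, by a mean difference of 3.29 (SE 0.63, 9.79-fold, limma adjusted p = 0.00511). Its closest relative Adamts9 (chromosome 6, 92772699 to 92943492), with related roles in the embryo, was at 10.49, 10.19, 11.11, 11.21 and 11.03 in wildtype, against 13.06, 12.43 and 11.68 in PRC2 loss, a rise of 1.58 (SE 0.34, limma adjusted p = 0.00849). Exons of 2 noncoding genes lie antisense to Adamts9, and without known strand use their reads cannot be told apart from its own.

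Adamts15, another versican-cutting enzyme, was at 11.14, 10.07, 11.27, 9.84 and 10.75 in wildtype, against 13.26, 11.92 and 11.93 in PRC2 loss. PRC2 loss tumor 1 was the highest, and the rise of 1.76 (SE 0.43, 3.38-fold, limma adjusted p = 0.0141) was lost without it (0.0609). Its head-to-head neighbour on chromosome 9, Adamts8, did not share this direction: it was at 9.03, 10.87, 8.74, 7.10 and 7.81 in wildtype, against 7.25, 8.29 and 6.55 in PRC2 loss, and did not pass (limma adjusted p = 0.226).

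The inflammation-inducible aggrecanase Adamts4 fell, with 10.99, 10.88, 10.33, 10.02 and 11.16 in wildtype and 9.62, 9.62 and 8.06 in PRC2 loss. PRC2 loss tumor 3 was the lowest by more than 1 log2 unit, and the difference of -1.58 (SE 0.41, limma adjusted p = 0.0188) was lost without it (0.0556), without the PNC8 tumors (0.0906) and with housekeeping centring (0.0998). Adamts1 averaged 12.47 ± 0.49 (SD, n = 5) and 11.51 ± 0.54 (SD, n = 3), groups that overlapped, and differed by -0.96 (limma adjusted p = 0.0496). The Adamts1 call was lost in 16 of 22 alternatives, among them without wildtype tumor 1, 3, 4 or 5 (limma adjusted p = 0.0897, 0.0804, 0.0506 and 0.0989), without PRC2 loss tumor 2 or 3 (0.139 and 0.197) and with housekeeping centring (0.419). Adamts5, the other main aggrecanase and a neighbour of Adamts1 on chromosome 16, did not pass (10.67 ± 1.2 and 10.31 ± 0.30; 95% interval of the difference from -1.78 to 1.06).

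Of the 3 procollagen N-proteinases, which trim fibrillar procollagens before they assemble, Adamts14 fell. It was at 11.52, 10.97, 12.47, 12.70 and 12.50 in wildtype, against 10.61, 10.67 and 9.74 in PRC2 loss, a difference of -1.69 (SE 0.43, 3.23-fold lower, limma adjusted p = 0.0164). The groups were adjacent but did not overlap, and the call was lost without PRC2 loss tumor 3 (limma adjusted p = 0.0843), with animal numbers averaged (0.0543) and with housekeeping centring (0.0513). Adamts2, the main enzyme of this kind in skin, stood at 12.74 ± 0.53 (SD, n = 5) and 12.34 ± 0.16 (SD, n = 3), with a 95% interval of the difference from -1.07 to 0.26. It passed as lower without wildtype tumor 5 (difference -0.61, limma adjusted p = 0.0441). Adamts3, which also processes the lymphatic growth factor Vegfc, was at 7.08 ± 0.85 (SD, n = 5) and 7.0 ± 0.50 (SD, n = 3), with an interval from -1.26 to 1.09.

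Of the 9 other ADAMTS genes 1 fell and 1 rose. Adamts7 (chromosome 9, 90163069 to 90208071), which cuts cartilage oligomeric matrix protein, was at 11.07, 10.59, 12.56, 11.47 and 11.85 in wildtype, against 9.28, 9.5 and 8.60 in PRC2 loss. All PRC2 loss tumors were at least 1 log2 unit below all wildtype tumors, and the difference was -2.38 (SE 0.42, 5.21-fold lower, limma adjusted p = 0.00377). Exons of Adamts7 overlap those of Tbc1d2b on the other strand by up to 122 bases. Its relative Adamts12, with a similar substrate, did not pass (11.45 ± 0.44, SD, n = 5, against 12.13 ± 0.73, SD, n = 3; limma adjusted p = 0.169), and with housekeeping centring it passed as higher (0.0298). Adamts10, an enzyme of fibrillin microfibrils, rose by 1.30 (SE 0.33, limma adjusted p = 0.0171), from 12.16, 12.83, 11.74, 11.40 and 11.32 in wildtype to 13.28, 12.96 and 13.34 in PRC2 loss. The Adamts10 call was lost without PRC2 loss tumor 1 or 3 (limma adjusted p = 0.0692 and 0.0757) and with animal numbers averaged (0.0528).

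Adamts6, a close relative of Adamts10, had a difference of -1.10 and did not pass (limma adjusted p = 0.0592); without PRC2 loss tumor 1, whose 10.59 lay within the wildtype range, it passed as lower (-1.59, 0.0151). Adamts17, linked to short stature with eye defects, did not pass (7.49 ± 1.26, SD, n = 5, against 9.01 ± 1.46, SD, n = 3; limma adjusted p = 0.191). The remaining members, Adamts13, which cuts von Willebrand factor, and Adamts16, Adamts18 and Adamts19, did not pass with all 8 tumors (limma adjusted p between 0.0884 and 0.203). Adamts13 was at 0 in wildtype tumors 3, 4 and 5 and passed as higher without wildtype tumor 2 (difference 2.81, limma adjusted p = 0.0337), and Adamts18 passed as higher without wildtype tumor 3 (2.94, 0.0421).

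The ADAMTS-like genes held the rise with the smallest p of all 51 genes. Adamtsl5 (chromosome 10, 80339110 to 80348412), a microfibril-binding protein, was at 9.82, 10.71, 9.35, 9.24 and 9.16 in wildtype, against 12.57, 12.90 and 12.68 in PRC2 loss. The PRC2 loss tumors lay close together, between 12.57 and 12.90, above every wildtype tumor, with a difference of 3.06 (SE 0.34, 8.35-fold, limma adjusted p = 0.000559). Adamtsl3 (chromosome 7, 82335694 to 82614450) was at 9.97, 9.52, 8.07, 7.0 and 9.56 in wildtype, against 12.34, 12.33 and 11.97 in PRC2 loss, a difference of 3.39 (SE 0.64, 10.5-fold, limma adjusted p = 0.00493). Both calls held in each of 22 alternatives.

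Adamtsl1 rose by 2.33 (SE 0.74, 5.02-fold, limma adjusted p = 0.0386), but its wildtype tumors were split, with 10.50 and 11.24 in the PNC8 tumors and 8.76, 8.07 and 8.21 in the others, against 11.78, 11.98 and 11.28 in PRC2 loss. Without the PNC8 tumors the Adamtsl1 difference was 3.34 (limma adjusted p = 0.00114), whereas leaving out wildtype tumor 3, 4 or 5 (0.0896, 0.0801 and 0.0808) or PRC2 loss tumor 1, 2 or 3 (0.124, 0.139 and 0.095) ended the call. Averaging tumors by animal number ended it as well (limma adjusted p = 0.0899). Adamtsl2, a fibrillin-binding protein, showed the same split among wildtype tumors (8.74 and 9.07 against 6.86, 6.73 and 6.12) and did not pass (limma adjusted p = 0.232). Adamtsl4, which binds fibrillin in the eye's zonule, was at 10.14 ± 0.59 (SD, n = 5) and 10.65 ± 0.26 (SD, n = 3) and passed only with housekeeping centring (limma adjusted p = 0.014, against 0.259).

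The TIMPs were not uniform. Timp1 (X chromosome, 20870166 to 20874735), a broad inhibitor that is induced in injured and inflamed tissue, was at 12.44, 12.22, 11.78, 11.56 and 12.61 in wildtype, against 9.84, 10.37 and 9.31 in PRC2 loss. Every PRC2 loss tumor was more than 1 log2 unit below every wildtype tumor, and the difference of -2.28 (SE 0.30, 4.86-fold lower) had limma adjusted p = 0.00113. By Xist and Y-linked genes 1 wildtype and 1 PRC2 loss tumor were male, wildtype tumor 5 and PRC2 loss tumor 1. The Timp1 call held with sex as a covariate and without both male tumors. Within PRC2 loss, however, sex cannot be told apart from animal code or nerve. Timp2, which also takes part in Mmp2 activation with Mmp14, was at 14.82, 14.79, 15.76, 15.74 and 15.35 in wildtype, against 15.58, 15.53 and 15.64 in PRC2 loss, with a 95% interval of the difference from -0.36 to 0.94. With housekeeping centring Timp2 passed as higher (0.86, limma adjusted p = 0.0326), and without the PNC8 tumors its difference was -0.03.

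Timp3, the matrix-bound inhibitor that also blocks ADAMTS proteases, varied by animal code in wildtype. It was at 14.88 and 15.24 in the PNC8 tumors, at 17.74 and 18.45 in the PNC9 tumors and at 16.14 in wildtype tumor 5, against 15.53, 16.18 and 16.14 in PRC2 loss. The PRC2 loss values lay inside that range, with a 95% interval of the difference from -2.41 to 1.33. Timp4, the TIMP of heart, brain and fat, was at 5.00, 1.85, 5.63, 5.59 and 0 in wildtype, against 7.16, 5.37 and 9.16 in PRC2 loss; the groups overlapped and it did not pass (difference 3.62, 95% interval 0.20 to 7.03, limma adjusted p = 0.0919). With housekeeping centring Timp4 passed as higher (limma adjusted p = 0.0427). Timp3 and Timp4 lie within synapsin genes on the opposite strand and share exon bases with Syn3 and Syn2, so their reads cannot be separated without strand.

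**Figure D5:**
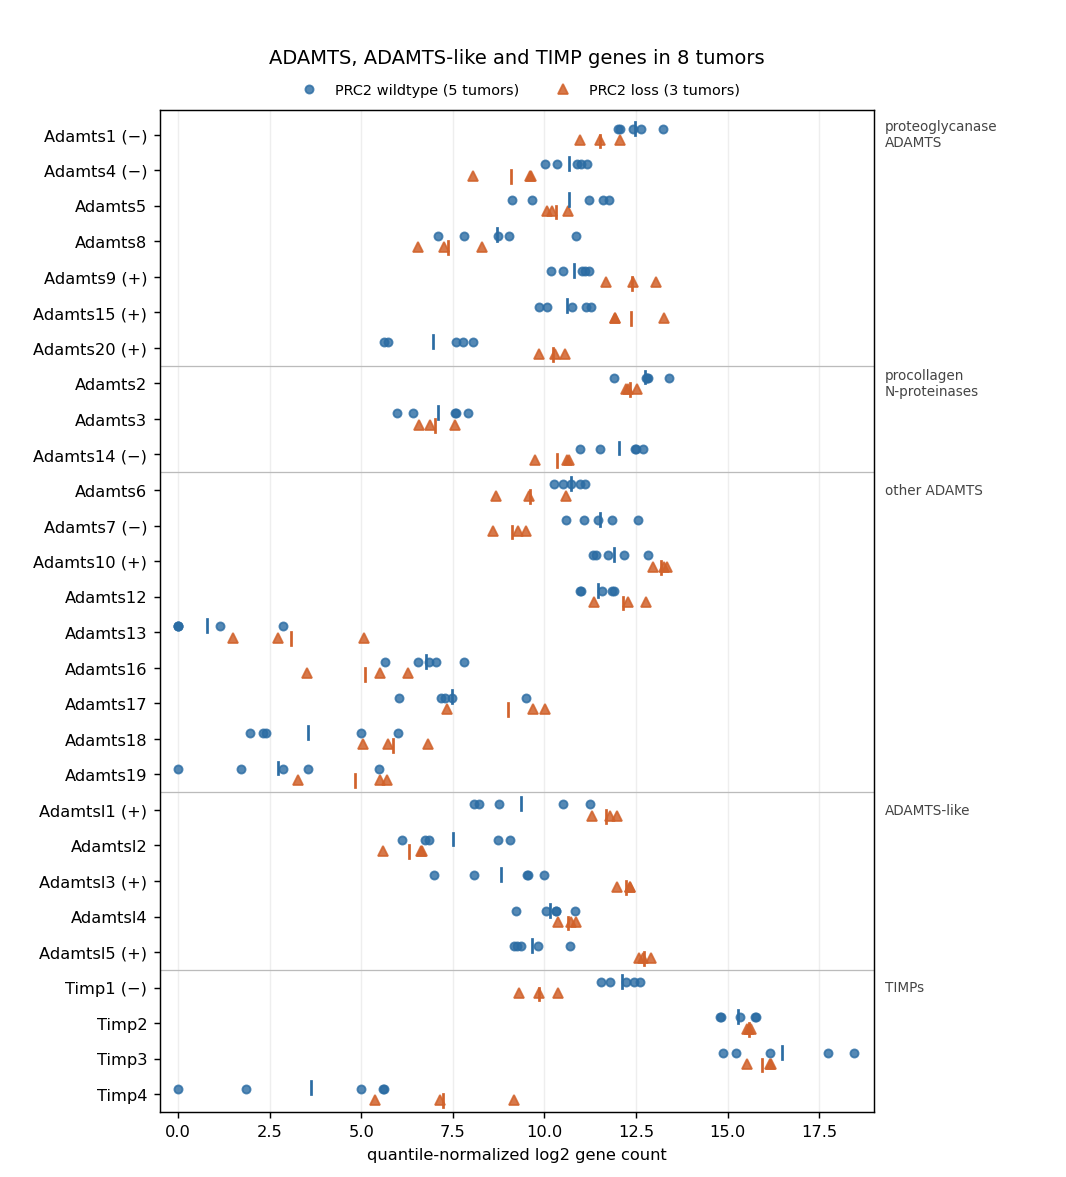
Quantile-normalized log2 gene counts (horizontal axis) of the 19 ADAMTS, 5 ADAMTS-like and 4 TIMP genes in 5 PRC2 wildtype tumors (circles) and 3 PRC2 loss tumors (triangles), grouped by role, with a short line at each group mean. A plus or minus sign marks the 7 genes higher and the 5 genes lower in PRC2 loss at an adjusted p below 0.05; the PRC2 loss tumors of Adamtsl3, Adamtsl5 and Adamts20 all lie to the right of the wildtype tumors.

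Other genes of pericellular proteolysis moved in part. Of 10 genes of the plasminogen system, which activates several MMPs outside the cell, 4 fell and 2 rose (median difference -0.46). Plaur, the urokinase receptor, was at 9.55 ± 0.67 (SD, n = 5) and 7.80 ± 0.65 (SD, n = 3; limma adjusted p = 0.014), and the inhibitor Serpinb2 at 4.04 ± 0.93 and 1.05 ± 0.99 (0.00925). Plg, plasminogen itself, was at 0 in each of the 5 wildtype tumors, against a mean of 2.46 in PRC2 loss (1.85, 1.85 and 3.68). These values are near the floor, and wildtype tumors had more genes at 0 (2686 to 3372) than PRC2 loss tumors (1822 to 2113). Of 16 activators, inhibitors and binding partners of MMPs 7 rose and 2 fell (median 1.04). The testican genes Spock2 and Spock1 were at 7.77 ± 0.86 and 0.85 ± 1.18 in wildtype, against 13.61 ± 0.32 and 7.89 ± 0.37 in PRC2 loss, and A2m, a broad trap of proteases, at 0.23 ± 0.51 and 9.08 ± 1.96. Cd44, a hyaluronan receptor that docks MMPs at the cell surface, differed by -2.45 (limma adjusted p = 0.00038). Reck, a membrane-anchored MMP inhibitor named here after its values were seen, rose by 2.08 (limma adjusted p = 0.000833).

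Of 15 ADAM and astacin proteases tested, 3 rose and 4 fell (median 0.26). Adam33, a mesenchymal member, was at 7.07 ± 1.02 (SD, n = 5) and 11.97 ± 0.51 (SD, n = 3), the adhesion protein gene Adam22 rose by 2.10, and Adam19 and the leukocyte enzyme Adam8 had differences of -1.70 and -1.69 (limma adjusted p = 0.000635, 0.00122, 0.00245 and 0.00829 in this order). Among 13 proteoglycans and other ADAMTS substrates 4 rose and 2 fell (median 0.40). The neural lecticans Bcan and Ncan rose by 4.62 and 3.37, from 1.43 ± 0.55 and 0.87 ± 0.85 in wildtype, and the basement membrane gene Nid2 rose by 1.18, while Thbs2 had a difference of -1.98 (limma adjusted p = 0.000493, 0.00425, 0.00384 and 0.00137). Vcan, versican, named after its values were seen, was at 14.75 ± 1.12 and 11.83 ± 0.78 (limma adjusted p = 0.00888), a fall in the same tumors in which 3 of its proteases, Adamts9, Adamts15 and Adamts20, rose and 2, Adamts1 and Adamts4, fell. Of 16 cathepsins and cystatins 7 fell and 2 rose (median -0.50): the differences were -1.59 for the cystatin Cstb, -1.87 for the granule protease activator Ctsc and -1.89 for the antigen-processing protease Ctss, and 1.28 for Ctsf (limma adjusted p = 0.00182, 0.00219, 0.00782 and 0.00553). These lists were compared with all genes only through their counts, of which 19.6% were lower and 16% higher.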

How the data were processed

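RNA of 8 tumors (5 PRC2 wildtype, 3 PRC2 loss) was measured. The values deposited by the authors are log2 gene counts after quantile normalization, in 1 table for all tumors, as its title and values show. Per the submitters' processing notes, Trim Galore, STAR 2.6, Partek 7.0 and mm10 were used; the order of steps, annotation, counting, strand use, gene filter and log offset: not given in the sources used here. Every tumor had a median between 8.463 and 8.467 and a highest value of 18.764, so depth is unknown and no counting interval is given. Between 2686 and 3372 genes were at 0 in wildtype tumors and between 1822 and 2113 in PRC2 loss tumors; none of 15 housekeeping genes was at 0.

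Tumors were grouped by their titles and columns matched by description. Of 20943 genes 136 were constant and 20807 were tested in limma 3.58.1 (R 4.3.3) with a mean-variance trend. Two-sided p-values were adjusted by Benjamini and Hochberg's method across these genes, with a threshold of 0.05; 9578 genes had an unadjusted p below it. Simulated data with the same group sizes (20807 genes) held 50 genes each shifted by 1, 2, 3 and 4 log2 units. Of these 46%, 82%, 96% and 94% were recovered, with 5 calls among the other genes. The shifted genes were drawn only from those at or above the median gene in mean value, and the noise was independent between tumors. Far fewer genes were shifted than were called in the data. The shares therefore do not cover genes below that median or tumors that share an animal number. The summed level of a marker list is the log2 of its summed linear values.

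The genes, lists and tests were chosen with earlier results of these data known. Named are all members past the threshold, up to 3 others per role group by mean, all TIMPs, members at 0 in a group, and up to 4 members past the threshold per further list by smallest p; remaining members are named to account for all 51, and Reck and Vcan as stated. Values of some genes under this rule are not reported here. Positions came from GENCODE M21 (mm10) by symbol. Promoter windows came from RefSeq on GRCm38.p6; 15 of the 51 genes had none. Alternatives were a filter on low genes, pseudocounts of 1 and 16, other variance priors, array weights, housekeeping centring, animal number averaged or as a random block, replicate number as a block, sex as a covariate and leaving out each tumor; fits without the PNC8 tumors, without the male tumors and on tumors 1 to 3 without the block were added after seeing the data.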

Additional observations from a re-analysis of the deposited data

Results flagged for a closer look

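Among 51 wildtype groups of 5 tumors examined (the members that varied in wildtype, and Eed), 2 held a tumor far from the others, where chance marks about 1 in 20. Mmp25 was at 9.474 in wildtype tumor 2, and the next highest tumor was at 8.03. Mmp3 was at 10.6 in wildtype tumor 4, and the next lowest tumor was at 12.18; its call held without that tumor.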

How the results depend on the processing

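None of the 25 calls among the 51 genes changed direction in the 22 alternatives. Most of these outcomes were fixed in advance, because only Adamts1 and Mmp14 of the called genes had overlapping groups. Of the 25 calls, 13 held in each of the 8 fits that left out 1 tumor. Main counts were 9 members higher and 16 lower, and 3337 genes higher and 4087 lower. Leaving out each tumor gave 6 to 10 members higher and 10 to 16 lower, and 2595 to 3381 genes higher and 2952 to 4313 lower; the 10 lower came without PRC2 loss tumor 3. Without genes below the median mean, 28 members remained in the fit, of which 8 were higher and 10 lower, and 1715 genes were higher and 2533 lower. Housekeeping centring gave 16 members higher, and 7454 genes higher and 1670 lower. With animal numbers averaged, 6 members (11.8%) were higher and 10 (19.6%) lower. Of all genes 2113 (10.2%) were higher and 2113 (10.2%) lower in that fit, and 16 of the 25 calls were kept. A replicate block on tumors 1 to 3 of each group gave 4 members higher and 8 lower (1137 genes higher, 755 lower), and the same tumors without the block 5 higher and 11 lower (2613 genes lower). The replicate numbers only name the tumors: deviations of same-numbered tumors correlated at -0.155, 0.0945 and -0.0482, and no wildtype tumor correlated best with its own number. Without the male tumors 4 members were higher and 8 lower, and 2169 genes were higher and 2411 lower. The smaller fits hold 6 tumors or 5 animal numbers.

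Directions turned only for genes that had not passed. Under housekeeping centring these were Adamts2 (0.162), Adamts3 (0.485), Adamts5 (0.21), Mmp2 (0.485), Mmp24 (0.122) and Timp3 (0.0279). Mmp2 also turned with array weights (0.0458), animal numbers averaged (0.0366), without wildtype tumor 3 and without PRC2 loss tumor 3; leaving out each tumor gave -0.271 to 0.166. Adamts3 turned on tumors 1 to 3 with or without the block (0.362), without the male tumors (0.112), and without wildtype tumor 3, 4 or 5 or PRC2 loss tumor 2; leaving out each tumor gave -0.361 to 0.129. Mmp17 turned on tumors 1 to 3 with or without the block (-0.00553). Adamts5 (0.317) and Timp2 (-0.0347) turned without the PNC8 tumors, and Mmp24 without PRC2 loss tumor 3 (-0.844 to 0.0557 over the tumors left out). The cause was not tested.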
